A study of Mus musculus with 12 samples.

Results

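The genes described here are the nuclear genes of mouse mitochondrial protein quality control and mitochondrial tRNA charging, taken by gene name from a list of 36 among the 56748 genes of the count table. All 36 were found, and they comprise 20 chaperones, proteases and import-motor genes, called proteostasis genes here, and 16 aminoacyl-tRNA synthetases of the mitochondrion. RNA was sequenced from 12 whole livers of mice of C57BL6 lines after a 24 h fast. The 4 WT livers carried floxed Cpt1a, Cpt1b and Cpt2 alleles as a triple floxed control, the 4 SKO livers had a liver-specific deletion of Cpt2, and the 4 DKO livers had liver-specific deletions of both Atf3 and Cpt2. The deletions were driven by Cre under the albumin promoter, which acts in hepatocytes, so that cells such as macrophages and endothelial cells keep the floxed genes. The labels give neither age nor sex and number the livers without stating the animal of each, so that p-values measure the spread between these libraries. In addition, the floxed loci of the controls differ from those of both KO lines, so that line and genotype cannot be told apart. The study describes the double KO as a mouse line made for it, and the labels do not relate its mice to the SKO mice. Line and loss of Atf3 therefore cannot be told apart in DKO against SKO either. The question put to the data was how these genes differed between fasted livers without Cpt2, with and without Atf3, and controls.

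Most proteins of the mitochondrion are made in the cytosol and threaded through the inner membrane, where the matrix Hsp70 pulls them in, a peptidase removes the targeting sequence and the chaperonin folds them. Damaged or unassembled proteins are degraded by the matrix proteases ClpXP (Clpx with Clpp) and Lonp1 and by proteases of the inner membrane. Proteins encoded in mitochondrial DNA are made inside the organelle, with tRNAs that are charged by the synthetases. Cpt2 is the inner membrane enzyme that regenerates acyl-CoA from acylcarnitine for fatty acid oxidation, on which the fasted liver depends. Atf3 is a stress-responsive transcription factor of the CREB family.

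Total counts were 14710304 to 20030055 per liver, and the 36 genes had 40 to 16310 counts in any liver, so that none was near the limit of detection. Levels are given as CPM, which is counts scaled by library size and by TMM factors over the 12 livers. Cpt2 lay at 199 to 252 CPM in WT, 108 to 157 CPM in SKO and 101 to 127 CPM in DKO livers. Atf3 lay at 1.11 to 2.16 CPM in WT and 14.5 to 53.4 CPM in SKO livers, and at 7.92, 10.7, 13.6 and 0.270 CPM in DKO livers 1 to 4. DKO livers 1 to 3 were thus above every WT liver and below every SKO liver, and only liver 4 was below the WT livers. The log2 fold change of Atf3 was 2.38 (SE 0.78, adjusted p = 0.0796 by edgeR's quasi-likelihood test) in DKO against WT. In DKO against SKO it was -1.91 (SE 0.73, adjusted p = 0.701 by the same test). The labels do not give the deleted exons, and transcripts with the other exons can still be counted. SKO liver 3 and DKO liver 4 had at least 18063 counts of Xist and at most 2 counts of Y-linked genes, while the others had at most 19 counts of Xist and at least 2741 of Y-linked genes. These 2 livers thus go against the study's description of the sequenced mice as males. Calls that changed when either of these livers was left out are named below.

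Promoters of some of the genes on which the results turn are shown here, written 5′ to 3′ on the strand named, to place them beside the values. Of the 36 genes, 30 had an entry in the RefSeq promoter table of GRCm38.p6, with 250 bases before and 50 bases after the start of the gene, and those of Grpel2, Afg3l2, Hars2, Hspa9, Htra2 and Pars2 were not analysed here. Shown are the window of Hspe1, of which 285 bases also lie in a window of Hspd1 on the opposite strand, those of Lars2 and Clpx, which had the largest differences between DKO and SKO livers, and that of Tars2, which was higher than in WT in both KO groups. Capitals mark matches to TTCNNGAA or GAANNTTC, which are inverted repeats of heat shock elements, and to CCAAT, the NF-Y box, on either strand.
Hspe1, chr1:55087898-55088197, + strand: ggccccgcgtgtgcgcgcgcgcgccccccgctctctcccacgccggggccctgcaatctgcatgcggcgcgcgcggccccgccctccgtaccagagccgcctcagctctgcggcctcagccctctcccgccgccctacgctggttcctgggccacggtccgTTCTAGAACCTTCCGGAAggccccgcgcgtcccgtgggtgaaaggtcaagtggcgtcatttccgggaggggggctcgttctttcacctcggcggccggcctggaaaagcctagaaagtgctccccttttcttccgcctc
Lars2, chr9:123366677-123366976, + strand: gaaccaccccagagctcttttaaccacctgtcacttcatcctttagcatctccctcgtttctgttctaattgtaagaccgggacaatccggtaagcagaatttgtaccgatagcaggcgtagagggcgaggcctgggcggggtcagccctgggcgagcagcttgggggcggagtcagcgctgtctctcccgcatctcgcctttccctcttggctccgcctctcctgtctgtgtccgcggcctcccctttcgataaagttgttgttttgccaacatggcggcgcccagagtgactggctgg
Clpx, chr9:65294010-65294309, + strand: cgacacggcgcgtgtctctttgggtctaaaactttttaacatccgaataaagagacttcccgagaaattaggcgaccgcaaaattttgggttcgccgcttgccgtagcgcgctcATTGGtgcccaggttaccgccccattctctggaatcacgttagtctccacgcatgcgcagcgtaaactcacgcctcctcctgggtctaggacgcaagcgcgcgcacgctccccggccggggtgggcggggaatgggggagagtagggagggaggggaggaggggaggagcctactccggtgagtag
Tars2, chr3:95754928-95755227, - strand: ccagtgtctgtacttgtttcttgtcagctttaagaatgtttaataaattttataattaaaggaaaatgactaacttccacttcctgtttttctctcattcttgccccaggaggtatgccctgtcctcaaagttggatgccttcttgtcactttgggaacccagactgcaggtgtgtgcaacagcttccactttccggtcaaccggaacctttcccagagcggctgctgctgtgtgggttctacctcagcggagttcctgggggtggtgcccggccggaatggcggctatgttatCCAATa
The Hspe1 window held 2 matches to TTCNNGAA and 1 to GAANNTTC, which overlap each other in a single run of bases. The annotated Hspd1 and Hspe1 genes lie on opposite strands and overlap by 112 bases. TTCNNGAA occurred in 3 of the 30 promoters, namely those of Clpp, Hspd1 and Hspe1, against 9.60% of 27025 promoters of all genes. GAANNTTC occurred in 2 of the 30, those of Hspd1 and Hspe1, against 9.04% of all promoters. For both motifs the matches of Hspd1 and Hspe1 are the same bases, counted once in each of their overlapping windows. The cAMP response element TGACGTCA was found in the promoter of Trap1 alone, or 3.33% of the 30 against 2.03% of all promoters. The AP-1 site TGANTCA and the composite C/EBP-ATF site TGATGNAA were in none of the 30 windows, against 8.97% and 4.51% of all promoters. CCAAT was in 13 of the 30, or 43.3%, against 41.1% of all promoters. These matches describe the letters in the windows, and the heat shock motifs were chosen after the sequences had been seen.

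Per transcript length, the proteostasis genes were the more abundant group. In WT livers, their mean FPKM (fragments scaled by transcript length and library size, as deposited) ranged from 4.41 for Htra2 to 200.5 for Hspd1 with a median of 26.6, and that of the synthetases ranged from 0.630 for Mars2 to 17.3 for Lars2 with a median of 3.97. Hspd1, which forms the chaperonin barrel, had the highest mean FPKM in each group of livers, at 291 in SKO and 230 in DKO, and Hspa9, the mitochondrial Hsp70, followed at 157 in WT, 186 in SKO and 164 in DKO. Lars2, which charges the mitochondrial tRNA for leucine, had the highest FPKM of the synthetases in every group, at 17.3 ± 6.58 in WT livers, 16.5 ± 1.04 in SKO livers and 50.3 ± 11.6 in DKO livers (SD, n = 4).

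In SKO against WT livers, the chaperonin genes Hspd1 and Hspe1, the import-motor genes Grpel1, Grpel2 and Timm44, the protease genes Clpp and Afg3l2, and the prohibitin gene Phb2 rose, with Grpel2 far above the rest. Tars2 and Iars2 rose among the synthetases, and Aars2 and Hars2 fell. Of the 20 proteostasis genes, 8 were higher and 0 lower at an adjusted p-value under 0.05 by edgeR's quasi-likelihood test over all genes tested, and 12 were not called. Of these 20, 10 had an unadjusted p-value under 0.05, and DESeq2 called the same 8 genes. Of the 16 synthetases, 2 were higher and 2 lower. Over all 36 genes this made 10 higher, or 27.8%, and 2 lower, or 5.56%, while of 14261 genes tested 16.7% were higher and 15.4% lower. The median log2 fold change was 0.25 for the proteostasis genes and 0.06 for the synthetases, against 0.03 for all genes tested. Without WT liver 1 the medians were 0.15 and 0.0023, and without SKO liver 2 that of the synthetases was -0.02. The CPM ranges of SKO and WT livers did not overlap for 11 genes that were higher and 3 that were lower, against 16.4% and 16.6% of all genes. Without WT liver 1, 3 of the 36 genes were called higher, namely Grpel1, Grpel2 and Afg3l2, against 12.4% of all genes. Without SKO liver 3, Ears2 was also called higher and Iars2 was no longer called, and the counts stayed at 10 higher and 2 lower, against 17.3% and 15.2% of all genes.

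Grpel2 encodes a nucleotide exchange factor that releases ADP from mitochondrial Hsp70, and it had the largest change of the 36 genes in both comparisons with WT. Grpel2 lay at 49.4, 48.2, 79.7 and 65.3 CPM in WT livers 1 to 4, at 211, 291, 282 and 205 CPM in SKO livers, and at 203, 243, 198 and 227 CPM in DKO livers. Every SKO and DKO liver lay above every WT liver, with no WT value above 79.7 and no KO value under 198 CPM. The log2 fold change was 2.04 (SE 0.19, adjusted p = 2.17e-05 by edgeR), or 4.12-fold, in SKO against WT and 1.86 (SE 0.18, adjusted p = 0.00328), or 3.62-fold, in DKO against WT. Both calls held in all 14 alternatives tried. In each comparison with WT, leaving out the liver with Xist counts is the same fit as keeping only livers with Y-linked counts. The tallies of 14 against WT, here and below, thus hold that fit under both names. DKO and SKO livers overlapped, with a log2 fold change of -0.18 (SE 0.17, adjusted p = 0.928).

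Its paralog Grpel1 also encodes an exchange factor of mitochondrial Hsp70 and was the more abundant of both genes per transcript length in each group. Grpel1 lay at 135 to 143 CPM in WT, 170 to 216 CPM in SKO and 129 to 177 CPM in DKO livers. It rose in SKO by a log2 fold change of 0.48 (SE 0.12, adjusted p = 0.00776), a call that held in all 14 alternatives, and it was at 0.11 (SE 0.13, adjusted p = 0.606) in DKO against WT. The FPKM of Grpel2 relative to Grpel1 stood at 0.226 ± 0.0581 (SD, n = 4) in WT livers, 0.666 ± 0.110 in SKO livers and 0.766 ± 0.109 in DKO livers. The highest WT ratio, 0.296, was under the lowest KO ratio, 0.526. Reads that Grpel1 shares with its overlapping neighbour Tada2b could add to its counts, since 10.9% of the 31-base words of Grpel1 transcripts also occur in other genes, while for Grpel2 5.24% do, in a pseudogene.

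**Figure D1:**
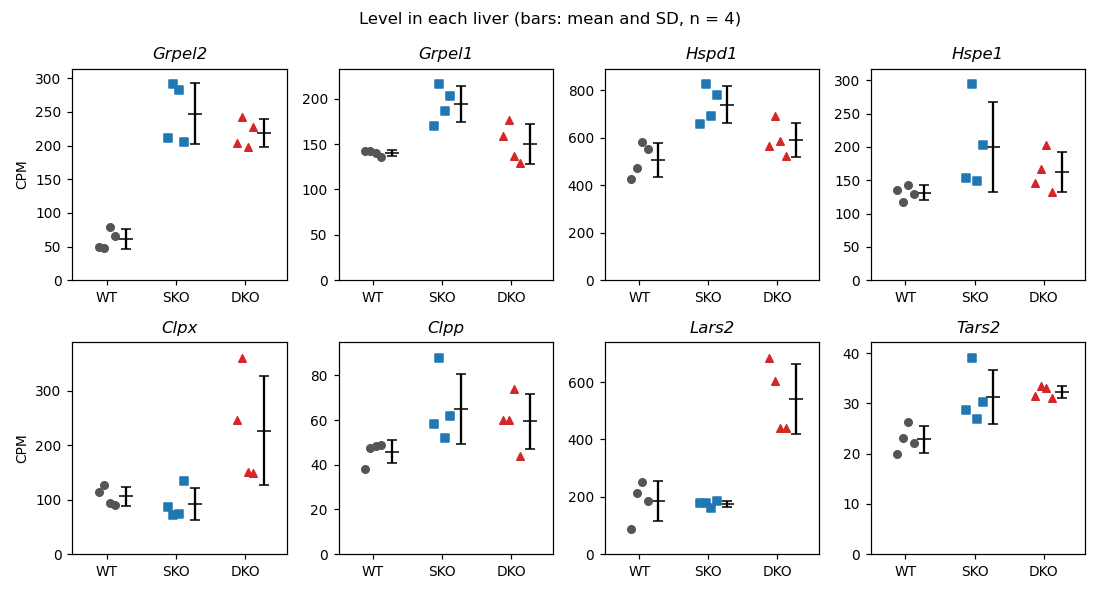
CPM (vertical axes, from 0) of 8 of the 36 genes in each of 4 WT, 4 SKO and 4 DKO livers, one point per liver, with the mean and SD beside the points. Grpel2 in all KO livers (198 to 291 CPM) sat above all WT livers (48.2 to 79.7 CPM), Lars2 in the DKO livers (438 to 683 CPM) lay above all other livers, and Clpx in the 4 DKO livers (149 to 360 CPM) lay above all WT and SKO livers.

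The other import-motor genes had smaller differences. Timm44, which tethers Hsp70 to the TIM23 channel, lay at 39.6 to 47.5 CPM in WT and 54.5 to 62.9 CPM in SKO livers without overlap, a log2 fold change of 0.39 (SE 0.11, adjusted p = 0.0199 by edgeR, called in 9 of 14 alternatives). In DKO livers Timm44 lay at 52.1 to 57.5 CPM, again above every WT liver, with a log2 fold change of 0.31 (SE 0.10, adjusted p = 0.0707) that was not called. Hspa9 itself was not called in SKO, with 566 to 728 CPM in WT and 712 to 825 CPM in SKO livers and a log2 fold change of 0.27 (SE 0.13, adjusted p = 0.133). Dnaja3, a J-protein that stimulates the Hsp70 ATPase, was at 145 to 155 CPM in WT and 127 to 141 CPM in SKO livers, ranges that did not overlap, yet it was not called (log2 fold change -0.15, adjusted p = 0.307). Trap1, the mitochondrial Hsp90, was not called in either comparison with WT, at log2 fold changes of -0.15 (SE 0.13) in SKO and -0.14 (SE 0.14) in DKO.

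Hspd1 and its lid Hspe1 were higher in SKO livers. Hspd1 lay at 426, 473, 582 and 552 CPM in WT livers 1 to 4, at 656, 825, 691 and 780 CPM in SKO livers, and at 564, 693, 586 and 524 CPM in DKO livers. All SKO livers were above all WT livers, and the DKO livers spanned the gap between them. The log2 fold change of Hspd1 was 0.55 (SE 0.14, adjusted p = 0.0118 by edgeR) in SKO against WT, 0.23 (SE 0.15, adjusted p = 0.341) in DKO against WT and -0.32 (SE 0.16, adjusted p = 0.790) in DKO against SKO. Hspe1 lay at 135, 118, 143 and 130 CPM in WT, at 154, 294, 149 and 204 CPM in SKO, and at 146, 166, 202 and 133 CPM in DKO livers. SKO livers 1 and 3 were only just above the highest WT liver, and SKO liver 2 was highest. The SKO change of Hspe1 was 0.62 (SE 0.20, adjusted p = 0.0366), called in 7 of 14 alternatives, and it was 0.37 and not called without SKO liver 2. That of Hspd1 was called in 12. The chaperonin genes kept a similar ratio of FPKM, Hspd1 over Hspe1, at 2.16 ± 0.272 in WT livers, 2.17 ± 0.443 in SKO livers and 2.07 ± 0.313 in DKO livers (SD, n = 4). Of the 31-base words of Hspd1 transcripts 53.1% occur elsewhere, mostly in the pseudogene Hspd1-ps3, and of those of Hspe1 30.5% do, so that their counts depend on how such reads were assigned.

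Clpx and Clpp, the ATPase that unfolds substrates and the protease chamber that degrades them, were called in different comparisons. Clpx lay at 113, 127, 93.7 and 90.5 CPM in WT livers 1 to 4, at 87.4, 71.7, 73.0 and 134 CPM in SKO livers, and at 247, 360, 151 and 149 CPM in DKO livers. All 4 DKO livers were above all WT and SKO livers, though the DKO livers themselves ranged from 149 to 360 CPM. Clpx had a log2 fold change of 1.11 (SE 0.28, adjusted p = 0.0384 by edgeR) in DKO against WT, -0.20 (SE 0.20, adjusted p = 0.498) in SKO against WT, and 1.31 (SE 0.31, unadjusted p = 0.00168 by the edgeR model, adjusted p = 0.396) in DKO against SKO. The first was called in 7 of 14 alternatives, and the last in 1, by DESeq2, with an adjusted p of 0.0212. Over those alternatives the log2 fold change in DKO against SKO ran from 1.00 to 1.54.

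Clpp lay at 38.1, 47.5, 48.6 and 48.9 CPM in WT livers, at 58.1, 87.8, 52.1 and 61.9 CPM in SKO livers, and at 60.1, 60.2, 74.1 and 43.9 CPM in DKO livers. Every SKO liver exceeded every WT liver, and DKO liver 4 lay within the WT range. For Clpp the log2 fold change was 0.52 (SE 0.17, adjusted p = 0.0318 by edgeR, called in 8 of 14 alternatives) in SKO and 0.39 (SE 0.16, adjusted p = 0.141) in DKO against WT. The former was 0.34 and not called without SKO liver 2, and the latter was 0.51 (SE 0.12, adjusted p = 0.00662) without DKO liver 4. The ratio of FPKM, Clpx over Clpp, was 0.824 ± 0.193 in WT livers, 0.515 ± 0.194 in SKO livers and 1.36 ± 0.575 in DKO livers (SD, n = 4), and the SKO values overlapped with both other groups. Lonp1, the other ATP-dependent protease of the matrix, was not called in any comparison and lay at 160 ± 24.3 CPM in WT, 165 ± 14.4 CPM in SKO and 159 ± 22.5 CPM in DKO livers.

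**Figure D2:**
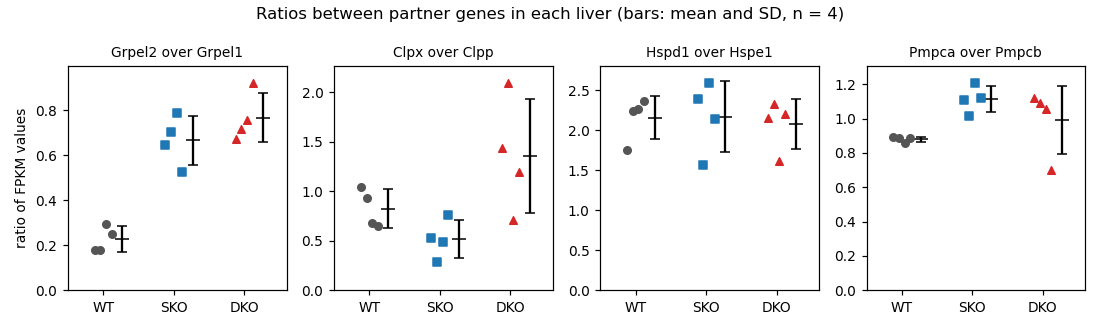
Ratios of deposited FPKM values (vertical axes, from 0) between partner genes, one point per liver in 4 WT, 4 SKO and 4 DKO livers, with the mean and SD beside the points. Grpel2 over Grpel1 separated all KO livers from WT livers, Hspd1 over Hspe1 overlapped in all groups, and Pmpca over Pmpcb was higher in all SKO livers (1.02 to 1.21) than in WT livers (0.860 to 0.891).

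Among genes of the inner membrane, Afg3l2 and Phb2 rose in SKO livers. Afg3l2, a subunit of the m-AAA protease that faces the matrix, lay at 103, 118, 115 and 120 CPM in WT, at 158, 159, 143 and 159 CPM in SKO, and at 161, 167, 157 and 114 CPM in DKO livers. The WT and SKO livers did not overlap, and in DKO livers 3 of 4 were at SKO levels while liver 4 was within the WT range. Afg3l2 had a log2 fold change of 0.46 (SE 0.11, adjusted p = 0.00744 by edgeR, called in all 14 alternatives) in SKO and 0.40 (SE 0.14, adjusted p = 0.0931) in DKO against WT, or 0.51 (SE 0.10, adjusted p = 0.00190) without DKO liver 4. Phb2, which forms the prohibitin ring around such proteases, lay at 204 to 234 CPM in WT, 270 to 372 CPM in SKO and 241 to 287 CPM in DKO livers. Both KO groups lay above WT without overlap, with a log2 fold change of 0.50 (SE 0.13, adjusted p = 0.0118) in SKO and of 0.25 (SE 0.11, adjusted p = 0.179) in DKO, or 0.29 (SE 0.10, adjusted p = 0.0441) without DKO liver 4. The remaining membrane and intermembrane space proteases were not called in any comparison, namely Spg7, the partner of Afg3l2, Yme1l1, which faces the intermembrane space, Oma1, which cleaves Opa1, and Htra2. Their log2 fold changes ranged from -0.01 for Yme1l1 to 0.23 for Oma1 in SKO and from -0.12 for Yme1l1 to 0.35 for Oma1 in DKO against WT.

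The processing peptidase genes Pmpca and Pmpcb and the gene Pitrm1 were not called in any comparison with all livers in the fit. Pmpcb, the catalytic subunit of the peptidase that removes targeting sequences, lay at 94.2 to 120 CPM in WT and 81.1 to 93.5 CPM in SKO livers, which did not overlap, with a log2 fold change of -0.28 (SE 0.11, adjusted p = 0.0859 by edgeR). Pmpca, its partner that recognises the targeting sequence, was at 0.06 (SE 0.11, adjusted p = 0.709). Pitrm1, which degrades the removed peptides, was at 0.34 (SE 0.13, adjusted p = 0.0696), and it was called higher in 1 of 14 alternatives, without SKO liver 2 (adjusted p = 0.0451). The FPKM ratio of Pmpca over Pmpcb was 0.880 ± 0.0137 (SD, n = 4) in WT and 1.11 ± 0.0784 in SKO livers without overlap, while in DKO livers it ran from 0.702 in liver 4 to 1.12. Of the 31-base words of Pmpca transcripts 19.7% occur in other genes, mainly in its overlapping neighbour Inpp5e.

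**Figure D3:**
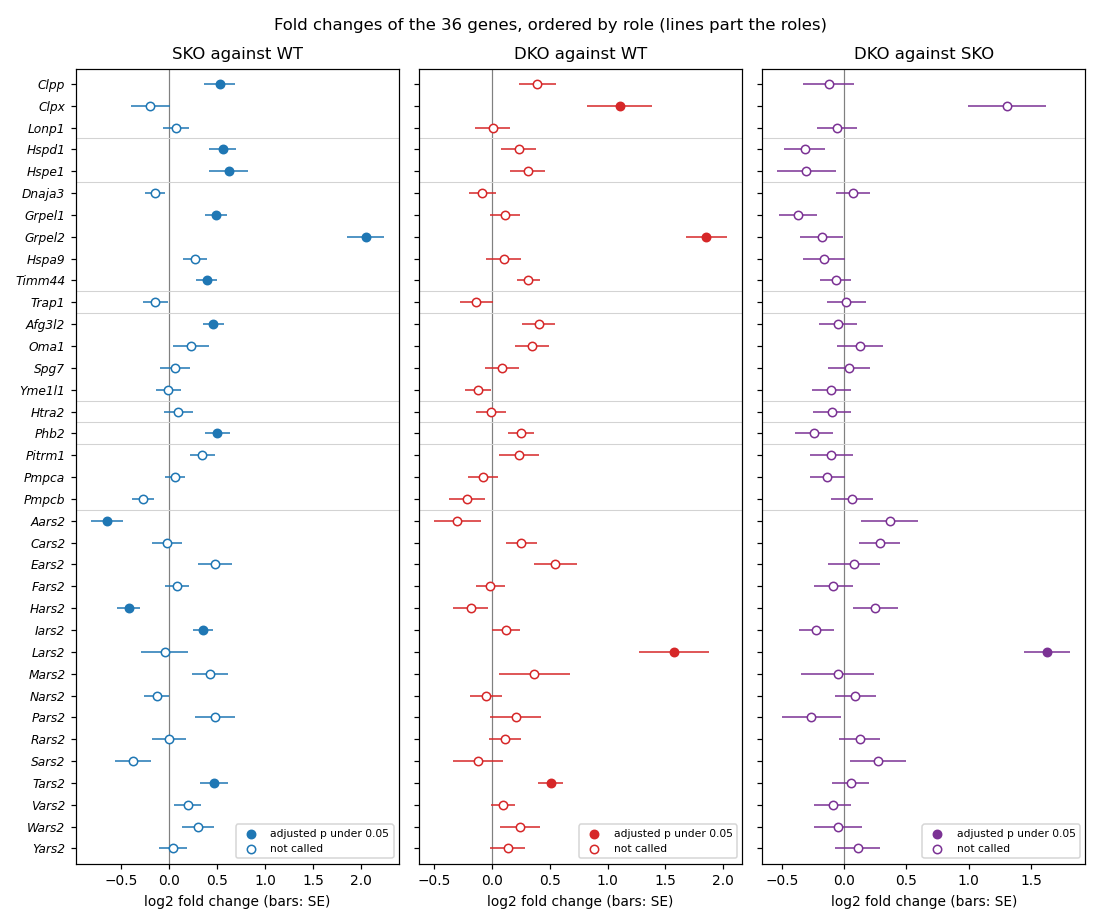
Log2 fold change (horizontal axes) of each of the 36 genes in SKO against WT, DKO against WT and DKO against SKO, with bars for the SE and filled points for genes called at an adjusted p-value under 0.05. The panels show 10 genes higher and 2 lower in SKO against WT, 4 higher in DKO against WT, and Lars2 alone in DKO against SKO.

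The synthetases did not move together in SKO livers. Tars2, for threonine, lay at 19.9 to 26.4 CPM in WT, 26.9 to 39.0 CPM in SKO and 31.2 to 33.4 CPM in DKO livers. Its WT livers were below all KO livers, and the log2 fold change was 0.46 (SE 0.15, adjusted p = 0.0301 by edgeR) in SKO and 0.51 (SE 0.11, adjusted p = 0.0220) in DKO against WT, called in 9 and 7 of 14 alternatives. Iars2, for isoleucine, lay at 74.0 to 85.6 CPM in WT, 95.0 to 109 CPM in SKO and 73.4 to 97.7 CPM in DKO livers. It rose in SKO by a log2 fold change of 0.35 (SE 0.11, adjusted p = 0.0262), a call that held in 5 of 14 alternatives, and 23.6% of the 31-base words of its transcripts occur in other genes, mainly Rab3gap2.

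Aars2 and Hars2 fell in SKO livers. Aars2, for alanine, lay at 16.6, 23.0, 23.3 and 21.1 CPM in WT, at 16.8, 12.2, 12.3 and 11.4 CPM in SKO, and at 13.4, 15.1, 14.5 and 24.6 CPM in DKO livers. The overlap of SKO and WT came from 1 liver of each, and DKO liver 4 was above every WT liver. Aars2 had a log2 fold change of -0.65 (SE 0.17, adjusted p = 0.0108 by edgeR, called in all 14 alternatives) in SKO and -0.30 (SE 0.20, adjusted p = 0.359) in DKO against WT, or -0.54 (SE 0.14, adjusted p = 0.0102) without DKO liver 4. Hars2, for histidine, lay at 27.3 to 30.5 CPM in WT, 18.7 to 24.3 CPM in SKO and 20.6 to 33.2 CPM in DKO livers. SKO and WT livers did not overlap, and the log2 fold change was -0.42 (SE 0.12, adjusted p = 0.0178, called in 12 of 14 alternatives).

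The remaining 12 synthetases were not called in SKO against WT, among them Ears2, for glutamate, at 0.47 (SE 0.18, adjusted p = 0.0664 by edgeR), Pars2, for proline, at 0.47 (SE 0.21, adjusted p = 0.104), and Sars2, for serine, at -0.38 (SE 0.19, adjusted p = 0.142). All 4 SKO livers exceeded all WT livers in Pars2, with 3.20 to 4.35 against 2.54 to 2.81 CPM. The log2 fold changes of the others ran from -0.13 for Nars2 to 0.42 for Mars2.

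In DKO against WT livers, 4 of the 36 genes were higher, namely Grpel2, Lars2, Clpx and Tars2, and 0 were lower, while 9 had an unadjusted p-value under 0.05 and DESeq2 called the same 4. That was 11.1% higher, against 6.06% higher and 4.39% lower of 14448 genes tested. The ranges of DKO and WT livers did not overlap for 6 genes that were higher, the above 4 with Phb2 and Timm44, and for none that were lower, against 8.01% and 8.92% of all genes. The count depended on the livers in the fit. Without DKO liver 4, 11 genes were higher and 2 lower, against 18.4% and 17.5% of all genes, and the added ones were Clpp, Hspe1, Afg3l2, Phb2, Timm44, Ears2 and Mars2, which were higher, and Aars2 and Hars2, which were lower. Without this liver the log2 fold changes in DKO against WT not given above were 0.39 for Hspe1, 0.30 for Timm44, 0.69 for Ears2, 0.61 for Mars2 and -0.36 for Hars2, and with it they were 0.31, 0.31, 0.55, 0.37 and -0.19. Without WT liver 2, Grpel2 alone was called, against 0.828% of all genes higher. In DKO liver 4, Afg3l2 lay at 114 CPM against 157 to 167 CPM in the other DKO livers, Aars2 at 24.6 against 13.4 to 15.1 CPM, and Mars2, for methionine, at 3.84 against 9.67 to 10.7 CPM. In DKO against SKO, Lars2 alone was called both with this liver and without it, at 1.71 (SE 0.18, adjusted p = 0.00340 by edgeR) without it, against 0.0617% of all genes higher.

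In DKO against SKO livers, Lars2 was the only 1 of the 36 genes called by edgeR. Of 14363 genes tested, 0.00696% were higher, which is Lars2 itself, and 0.0139% lower. Lars2 lay at 87.4, 214, 250 and 184 CPM in WT livers 1 to 4, at 178, 179, 159 and 184 CPM in SKO livers, and at 683, 605, 438 and 439 CPM in DKO livers. The 4 DKO livers were above all other livers, the SKO livers lay close together, and WT liver 1 was the lowest of all. The log2 fold change was 1.63 (SE 0.19, adjusted p = 0.0283 by edgeR), or 3.09-fold, in DKO against SKO, 1.57 (SE 0.30, adjusted p = 0.0182, called in 9 of 14 alternatives) in DKO against WT and -0.05 (SE 0.25, adjusted p = 0.902) in SKO against WT. In DKO against SKO the log2 fold change lay between 1.49 and 1.72 in 14 alternatives, while the adjusted p-value ran from 4.51e-12 by DESeq2 to 0.242, and 5 alternatives called it. The call was lost when any single liver other than DKO liver 4 was left out.

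DESeq2 called 2 of the 36 genes higher in DKO against SKO, Clpx and Lars2, against 0.359% of all genes. Ranges of DKO and SKO livers did not overlap for these 2 genes and for none that were lower, against 2.30% and 1.69% of all genes. The median log2 fold change in DKO against SKO was -0.10 for the proteostasis genes, of which 6 were above and 14 below 0, and 0.08 for the synthetases, of which 10 were above and 6 below 0, against 0.01 for all genes tested. Without SKO liver 2 these medians were -0.03 and 0.18, and without SKO liver 3 that of the synthetases was 0.02. Besides Lars2, Clpx and Grpel1 had an unadjusted p-value under 0.05 in the edgeR model. By edgeR none of the other 35 genes passed the adjusted threshold, which does not show that they did not differ. The WT livers served as controls of both KO groups.

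Counts of ribosomal RNA also differed between livers and are given beside Lars2. The 18S rRNA gene Rn18s-rs5 took 0.452, 1.16, 1.36 and 1.15% of the counts in WT livers 1 to 4, 1.32, 0.713, 0.944 and 1.46% in SKO livers, and 1.40, 2.69, 1.80 and 2.80% in DKO livers. The liver with the least 18S counts, WT liver 1, was also the liver with the least Lars2, and 3 of the 4 DKO livers had more 18S than every other liver. DKO liver 1 had the most Lars2, at 683 CPM, with an 18S share of 1.40% that lay under the 1.46% of SKO liver 4. The log2 fold change of Rn18s-rs5 was 1.01 (SE 0.35, adjusted p = 0.633 by edgeR) in DKO against SKO and 0.91 (SE 0.40, adjusted p = 0.161) in DKO against WT. Lars2 counts per 1000 counts of Rn18s-rs5 were 18.9, 16.5, 16.4 and 14.5 in WT, 14.4, 25.6, 17.8 and 13.3 in SKO, and 51.3, 22.9, 27.9 and 15.0 in DKO livers. By this ratio DKO liver 4 fell within the WT range, DKO liver 2 within the SKO range, and livers 1 and 3 above both. None of the 11160 words of 31 bases in Lars2 transcripts occurs in the transcripts of 359 rRNA genes of GENCODE M21, among which 28S rRNA was not searched, and 0.923% occur in other genes. The rRNA-related gene AY036118 had mean levels of 33.6 ± 9.97, 38.7 ± 9.24 and 34.6 ± 3.87 CPM (SD, n = 4 each) in WT, SKO and DKO livers, with a log2 fold change of -0.16 (SE 0.18, adjusted p = 0.941) in DKO against SKO and 0.05 (SE 0.22, adjusted p = 0.896) in DKO against WT. Of the mitochondrial rRNAs, mt-Rnr2, the large one, lay at 218 to 619 CPM in WT, 220 to 865 CPM in SKO and 170 to 277 CPM in DKO livers, with a log2 fold change of -1.26 (SE 0.36, adjusted p = 0.472 by edgeR) in DKO against SKO, which DESeq2 called lower, and mt-Rnr1 was at -0.66 (SE 0.21, adjusted p = 0.599). Against WT, mt-Rnr2 was at -0.93 (SE 0.32, adjusted p = 0.0865 by edgeR) in DKO livers, which DESeq2 called lower, and at 0.34 (SE 0.39, adjusted p = 0.554) in SKO livers. The log2 fold change of mt-Rnr1 against WT was 0.73 (SE 0.27, adjusted p = 0.0591 by edgeR) in SKO livers, which DESeq2 called higher, and 0.06 (SE 0.25, adjusted p = 0.893) in DKO livers. The part of ribosomal RNA in the Lars2 counts was not tested.

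**Figure D4:**
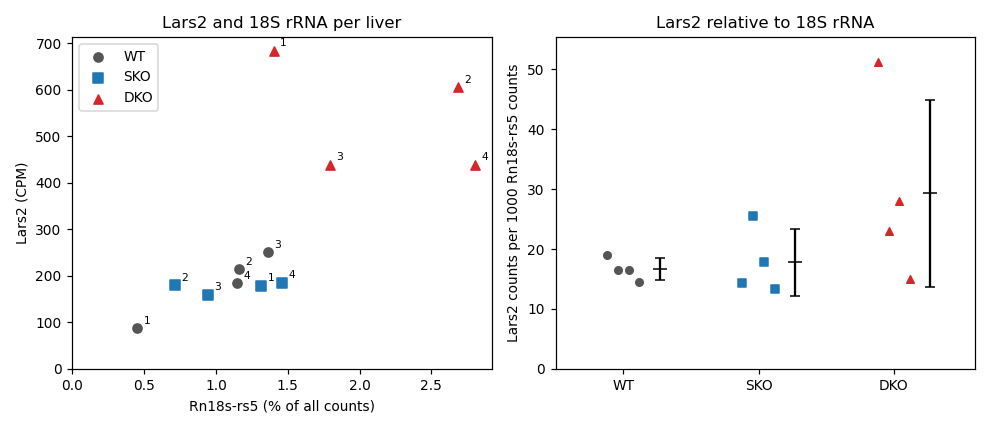
Left, Lars2 (CPM, vertical axis) against the share of all counts that fell on the 18S rRNA gene Rn18s-rs5 (percent, horizontal axis) in each of 12 livers, with the liver number beside each point, and right, Lars2 counts per 1000 Rn18s-rs5 counts with the mean and SD. The 4 DKO livers lie above 438 CPM at 18S shares of 1.40 to 2.80%, and their ratios to 18S run from 15.0 to 51.3.

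Other genes of the mitochondrial system were read from lists written by role. In SKO against WT, 11 of 30 tested genes of the outer and inner membrane translocases (36.7%) were higher and 0 lower, against 16.7% and 15.4% of all genes, with a median log2 fold change of 0.27, and 14 had an unadjusted p-value under 0.05 while DESeq2 called 10 higher and 0 lower. Among them were Samm50, which inserts beta-barrel proteins into the outer membrane, at 1.20 (SE 0.15), Chchd4, the import receptor of the intermembrane space, at 1.10 (SE 0.16), Tomm5 at 0.82 (SE 0.14) and Timm8a1 at 0.68 (SE 0.12). In the list of cytosolic aminoacyl-tRNA synthetases, 12 of 20 genes (60.0%) were higher and 0 lower, with a median of 0.42 and with Sars at 1.04 (SE 0.17), Vars at 1.00 (SE 0.15), Gars at 0.88 (SE 0.16) and Iars at 0.80 (SE 0.12). This list includes Gars and Kars, single genes that each encode both the cytosolic and the mitochondrial enzyme, so that it is not purely cytosolic. Of these 20, 15 had an unadjusted p-value under 0.05, and DESeq2 also called 12 higher and 0 lower. Of 15 genes in the list named mitochondrial stress signalling, 8 were higher and 0 lower by both tools. Fgf21 was at 4.50 (SE 0.37), Gdf15 at 4.17 (SE 0.33), Eif2ak3, the PERK kinase, at 1.72 (SE 0.21) and Atf4 at 0.70 (SE 0.14). Its genes may also respond to stress outside the mitochondrion, and the source of the signal was not tested.

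In the remaining lists, genes were called in both directions in SKO against WT. Of 77 mitochondrial ribosomal protein genes, 9 (11.7%) were higher and 5 (6.49%) lower, against 16.7% and 15.4% of all genes, with a median log2 fold change of 0.10, and Mrpl17 was at 1.32 (SE 0.15) while Mrpl39 was at -0.59 (SE 0.12). Of 21 other mitochondrial proteases and chaperones, 1 (4.76%) was higher and 5 (23.8%) were lower, with Phb, the partner of Phb2, at 1.07 (SE 0.13), Lactb at -0.89 (SE 0.11) and Mipep, which trims imported proteins, at -0.65 (SE 0.13). Of 26 other mitochondrial translation factors, 3 (11.5%) were higher and 4 (15.4%) lower, with Pus1 at 0.93 (SE 0.19) and Mto1, which modifies mitochondrial tRNAs, at -0.48 (SE 0.13). In DKO against WT, where 6.06% of all genes were higher and 4.39% lower, the counts were 3 higher and 0 lower for the translocases, 2 and 0 for the cytosolic synthetases, 5 and 1 for stress signalling, 4 and 0 for the ribosomal proteins, 1 and 1 for the other proteases and chaperones, and 2 and 0 for the translation factors. As shares these were 10.0%, 10.0%, 33.3%, 5.19%, 4.76% and 7.69% higher in the same order, as a description. In DKO against SKO, 0 genes of these 6 lists were called by edgeR or DESeq2, and 1 gene, Phb, had an unadjusted p-value under 0.05 by the model.

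**Figure D5:**
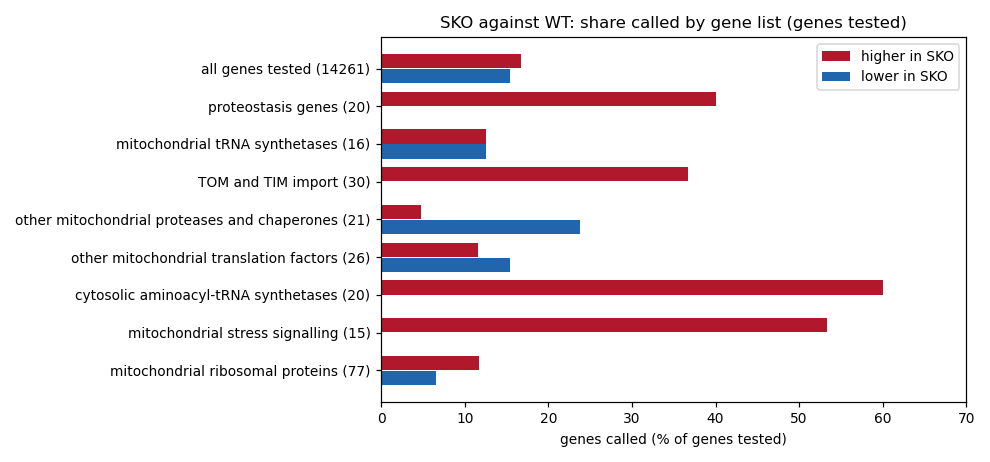
Share of genes called higher (red) and lower (blue) in SKO against WT livers, in percent of the genes tested (horizontal axis, from 0), for all genes, the proteostasis genes, the mitochondrial tRNA synthetases and 6 other lists, with the number of genes tested in brackets. The proteostasis genes had 40.0% higher and 0% lower, and the mitochondrial synthetases had 12.5% in each direction, against 16.7% and 15.4% of all genes.

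In bulk tissue, fewer cells of a type and less RNA per cell cannot be told apart. The counts of markers called stand against 16.7% of all genes higher and 15.4% lower in SKO against WT. In DKO against WT these shares were 6.06% and 4.39%. Of 6 hepatocyte markers, 4 were lower and 0 higher in SKO against WT, and their summed level was 77573 to 96300 CPM in WT, 44120 to 73546 CPM in SKO and 47148 to 100110 CPM in DKO livers. Of 7 stellate cell markers, 1 was higher and 0 lower in SKO, with summed levels of 172 to 201 CPM in WT, 230 to 322 CPM in SKO and 212 to 279 CPM in DKO livers. Macrophage markers were higher in 1 of 8 genes, and their sums overlapped, at 224 to 455 CPM in WT and 207 to 505 CPM in SKO livers. Of 5 cholangiocyte markers, 4 were tested and 2 of these were lower in SKO, with sums of 27.9 to 33.5 CPM in WT and 7.37 to 14.3 CPM in SKO livers. Endothelial cell markers were called in 0 of 6 genes in SKO. Of 3 erythroid markers, 2 were higher and 1 lower in SKO, with sums of 109 to 235 CPM in WT and 145 to 501 CPM in SKO livers. The sums of 6 lymphocyte markers were at most 4.70 CPM and those of 3 neutrophil markers at most 1.61 CPM in any liver, and no marker of these lists was at 0 in every liver. In DKO against WT, 1 hepatocyte, 1 macrophage, 1 cholangiocyte and 1 erythroid marker were lower and 0 markers of any list higher. Sums in DKO livers were 129 to 455 CPM for the macrophage, 9.61 to 31.6 CPM for the cholangiocyte and 119 to 666 CPM for the erythroid markers. The part of the cell composition in the changes of the 36 genes was not tested.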

How the data were processed

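Each of 12 liver libraries was assigned to WT, SKO or DKO by the genotype in its label. All tests used the deposited raw counts per gene, and levels per transcript length used the deposited FPKM values. Deposited tables of fold changes and p-values hold the authors' own comparisons and were not used. The submitters' processing notes name HISAT2, GRCm38 and mm10, while the counting program and the use of strand are not given in the sources used here. Of 52073 genes also in GENCODE M21 (GRCm38), 1472 had the same coordinates in the table, so that no coordinate of the table is printed. FPKM in the deposited table was 0.886 to 1.17 times the value computed from counts, length and total.

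Pairs of genotypes were compared with edgeR 4.0.16 in R 4.3.3 (TMM, filterByExpr and the quasi-likelihood test within the 8 livers compared), two-sided, with Benjamini-Hochberg adjustment over all genes tested and a threshold of 0.05. SE is the log2 fold change over the square root of F. Alternatives were RLE factors, DESeq2 1.42.0, no filter on low counts, 1 fit over all 12 livers, a replicate block, each liver left out in turn, and livers with Y-linked counts only. Within groups, no library was a copy of another, with a chi-square per degree of freedom of at least 18.5 between any pair. All 36 genes may be named, and of each other list the 4 genes with the smallest p-values in SKO against WT among those called, with a choice of these printed. The members and lists were chosen with earlier results of these data known.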

Additional observations from a re-analysis of the deposited data

Results flagged for a closer look

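In 108 groups of 4 livers (36 genes in 3 genotypes), a liver stood apart from the other 3 in 7, where chance alone gives about 5.4. A liver was counted when its gap to the nearest other liver, divided by the range of the group, was above Dixon's critical value for 4 values. DKO liver 4 was that liver for Aars2, at 24.6 CPM against 13.4 to 15.1 CPM, for Cars2, which charges the tRNA for cysteine, at 9.61 against 11.8 CPM, and for Mars2, at 3.84 against 9.67 to 10.7 CPM. WT liver 1 was apart for Clpp, at 38.1 against 47.5 to 48.9 CPM, and for Vars2, for valine, at 20.8 against 24.7 to 25.1 CPM. SKO liver 3 was apart for Afg3l2, at 142.9 against 157.9 to 159.5 CPM, and SKO liver 1 for Aars2, at 16.8 against 11.4 to 12.3 CPM.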

How the results depend on the processing

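Under RLE factors, DESeq2, no filter and 1 fit over all livers, 8 to 10 genes were higher in SKO against WT and 4 in DKO against WT. Of all genes, 15.9%, 13.2%, 8.98% and 13.4% were higher in SKO against WT in these fits, in that order. In DKO against WT these shares were 5.59%, 7.64%, 3.33% and 6.73%. The number lower in SKO was 1 without the filter, against 8.22% of all genes. With each liver left out in turn, 3 to 10 genes were higher and 1 to 2 lower in SKO against WT, 1 to 11 higher and 0 to 2 lower in DKO against WT, and 0 to 1 higher in DKO against SKO. The shares of all genes moved too, from 12.4% to 17.3% higher and 12.4% to 15.2% lower, from 0.828% to 18.4% and 0.802% to 17.5%, and from 0% to 0.0617% higher, in that order. With livers with Y-linked counts only, which in both comparisons with WT is the fit without the liver with Xist counts, 11 genes were higher and 2 lower in DKO against WT. The shares of all genes in this fit were 18.4% higher and 17.5% lower. In DKO against SKO, 2 genes were higher by DESeq2 and 0 in 1 fit over all livers, against 0.359% and 0.0134% of all genes. Livers of the same number deviated with correlations of -0.340 to 0.0887, so that no shared deviation by number was seen. Such correlations cannot exclude that livers of the same number were paired. With a replicate block, 6 genes were higher in SKO against WT, 2 in DKO against WT and 0 in DKO against SKO, against 14.6%, 2.30% and 0% of all genes. The median log2 fold change of the proteostasis genes in DKO against WT fell from 0.17 to 0.05 without DKO replicate 2. The median log2 fold change of the synthetases in DKO against SKO moved from 0.08 to 0.18 without SKO replicate 2 and to 0.0022 with livers with Y-linked counts only. Of the genes not called, 8 of 24 in SKO against WT, 6 of 32 in DKO against WT and 15 of 35 in DKO against SKO changed sign in some alternative, and no called gene did. The causes were not tested. The fewest counts of any of the 36 genes in a liver were 40.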
